A study of Mus musculus with 3 samples.

Results

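The 10 immediate early genes described here are Fos, Fosb, Jun, Junb, Atf3, Egr1, Egr2, Nr4a1, Ier2 and Dusp1. They were found by their symbols among the 26970 genes of the deposited table, and all 10 had a row. RNA was sequenced from mandibular condyles, the rounded ends of the lower jaw that form the temporomandibular joint, dissected with the cartilage still joined to the subchondral bone. The mice were 4 months old and had either the wild-type genotype (WT), 1 allele of Dspp deleted (Dspp+/-) or both alleles deleted (Dspp-/-), all on the C57BL/6 background. Dspp encodes dentin sialophosphoprotein, a matrix protein of dentin and bone, and the deletion was global, so every cell type of the joint and the teeth carried it. Tissue of 3 animals was pooled for WT and for Dspp+/-, and the number of animals behind the Dspp-/- library was not given in the sources used here. The labels mention triplicates, but the table holds 1 value per gene and genotype, taken here as 1 library. With 1 library per genotype there was no replicate and no test could be run, so the differences below are those of single libraries.

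Immediate early genes are switched on within minutes of a growth factor, cytokine, mechanical load or stress, without the need for new protein, and their short-lived mRNAs soon decay again. Signals reach them through MAP kinases, which act on serum response factor and its partners at CArG boxes and on CREB and ATF proteins at cAMP response elements in the promoters. Most encode transcription factors. FOS, JUN and ATF proteins pair through leucine zippers to form AP-1, which in the skeleton is known for its part in osteoclast formation, in the growth of bone-forming cells and in the transcription of matrix proteases.

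Promoter sequences are shown because immediate early genes are known to be induced through such elements. RefSeq promoters on GRCm38.p6, of 250 bases before to 50 after a start, were matched by symbol for 8 of the 10 genes, and there was no entry for Egr1 and Ier2. The runs printed here are 150 bases each, written 5′ to 3′ on the gene's strand. Capitals mark TGACG, the core of a cAMP response element, which reads as CGTCA where it lies on the other strand. They also mark TGACGTCA, the whole element, the CArG box and the TATAAA box.
Fos, chr12:85473740-85473889, + strand: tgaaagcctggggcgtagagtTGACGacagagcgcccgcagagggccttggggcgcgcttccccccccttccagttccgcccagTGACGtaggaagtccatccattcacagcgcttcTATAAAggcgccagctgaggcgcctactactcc
Junb, chr8:84978749-84978898, - strand: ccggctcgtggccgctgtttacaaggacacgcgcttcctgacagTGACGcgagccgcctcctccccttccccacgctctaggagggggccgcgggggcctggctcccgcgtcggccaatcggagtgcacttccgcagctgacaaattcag
Nr4a1, chr15:101266696-101266845, + strand: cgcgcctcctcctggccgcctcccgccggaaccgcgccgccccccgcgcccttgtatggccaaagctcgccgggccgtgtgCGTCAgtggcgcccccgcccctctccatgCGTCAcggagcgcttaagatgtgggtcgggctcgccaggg
Dusp1, chr17:26508520-26508669, - strand: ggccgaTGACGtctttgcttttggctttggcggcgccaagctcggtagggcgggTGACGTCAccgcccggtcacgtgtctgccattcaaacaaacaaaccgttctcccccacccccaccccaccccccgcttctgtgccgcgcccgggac
Atf3, chr1:191183341-191183490, - strand: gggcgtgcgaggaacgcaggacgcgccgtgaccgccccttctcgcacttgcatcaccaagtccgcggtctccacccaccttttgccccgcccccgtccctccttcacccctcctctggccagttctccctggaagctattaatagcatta
Egr2, chr10:67537416-67537565, + strand: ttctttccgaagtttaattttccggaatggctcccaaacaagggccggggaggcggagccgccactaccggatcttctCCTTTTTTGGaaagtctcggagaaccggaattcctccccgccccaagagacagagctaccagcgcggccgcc
In the 250 bases before the start, TGACG was found on either strand in 7 of the 8 genes, all but Jun, and in 19.8% of the 27025 genes with such a window. Fos had it 129 and 66 bases before its start, Junb 106 and Fosb 60 bases before. Dusp1 alone of the 8 had TGACGTCA, a full element that contains TGACG, which 1.77% of all genes had. The match of Atf3 lies 7 bases before its start, outside the run printed. A CArG box was found in Egr2 alone of the 8, 72 bases before the start shown, against 1.62% of all genes, while the TGACG of Egr2 lies before other annotated starts. TATAAA was found in Fos alone, 33 bases before the start, against 14.3% of all genes. TGANTCA, a looser pattern that includes the AP-1 site but takes any base at N, was in 0 of 8 and in 7.82% of all genes. AP-1 elements of another length or spelling would not match it. These matches describe letters in a window and are not evidence of binding. Bases farther than 250 before a start were not searched, so a motif not found here, such as a CArG box, may lie beyond the window.

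The libraries held 20241576 (WT), 23613621 (Dspp+/-) and 22253159 (Dspp-/-) fragments, as recovered from the values. They differed in composition. The 8 neutrophil markers were all at least 2-fold higher in both mutant libraries, with a summed level of 615, 2689 and 3664 FPKM in WT, Dspp+/- and Dspp-/-. FPKM are fragments scaled by gene length and by library size. Erythroid markers, 7 of 7, and B cell markers, 6 of 6, were likewise at least 2-fold higher in both. Summed osteoblast markers stood at 14539, 3993 and 8032 FPKM, and 7 of 8 and 2 of 8 were at least 2-fold lower than in WT. Osteocyte, chondrocyte and osteoclast sums were also lower in both mutants, the osteoclast sum being 2255, 803 and 1315 FPKM. Macrophage markers (185, 158 and 156 FPKM) and endothelial markers (114, 135 and 131 FPKM) were closer together. Mitochondrially encoded genes took 9.58% of WT fragments but 16.5% and 16.1% of those of Dspp+/- and Dspp-/-. Xist, transcribed from the inactive X chromosome of female cells, had 2 fragments in WT against 12084 and 10563 in the mutants, so sex and genotype cannot be told apart between WT and the mutant libraries. Dspp itself was not analysed here. In condyle RNA of this kind, fewer cells of a type and less RNA per cell cannot be told apart, and the part of cell composition in the values that follow was not tested.

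All 10 genes were detected in the 3 libraries, and none was at or under the floor of 3 fragments. Being scaled by length, FPKM levels of these genes can be set side by side. Dusp1 and Jun had the highest levels of the 10 in each library and Egr2 and Fosb the lowest, from 40.2 FPKM for Dusp1 in Dspp-/- down to 0.204 FPKM for Fosb in Dspp+/-. In WT the order was Dusp1, Jun, Junb, Ier2, Egr1, Nr4a1, Fos, Atf3, Egr2 and Fosb, and only Egr1 and Nr4a1 could not be separated within counting error. In Dspp+/- Ier2 stood above Junb and Nr4a1 above Egr1, with all neighbours apart. In Dspp-/- Ier2 again followed Jun, and Egr1, Nr4a1 and Junb came next. There Nr4a1 was within counting error of both Egr1 and Junb, and all other neighbours were apart. The summed level of the 10 genes was 139.8, 146.5 and 146.8 FPKM in WT, Dspp+/- and Dspp-/-. As deposited, the sum was thus nearly level while its makeup differed, but its level depended on the scaling. Without hemoglobin, immunoglobulin, muscle and mitochondrial genes, each ratio to WT was 1.12 times as large in Dspp+/- and 1.09 times in Dspp-/-.

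**Figure D1:**
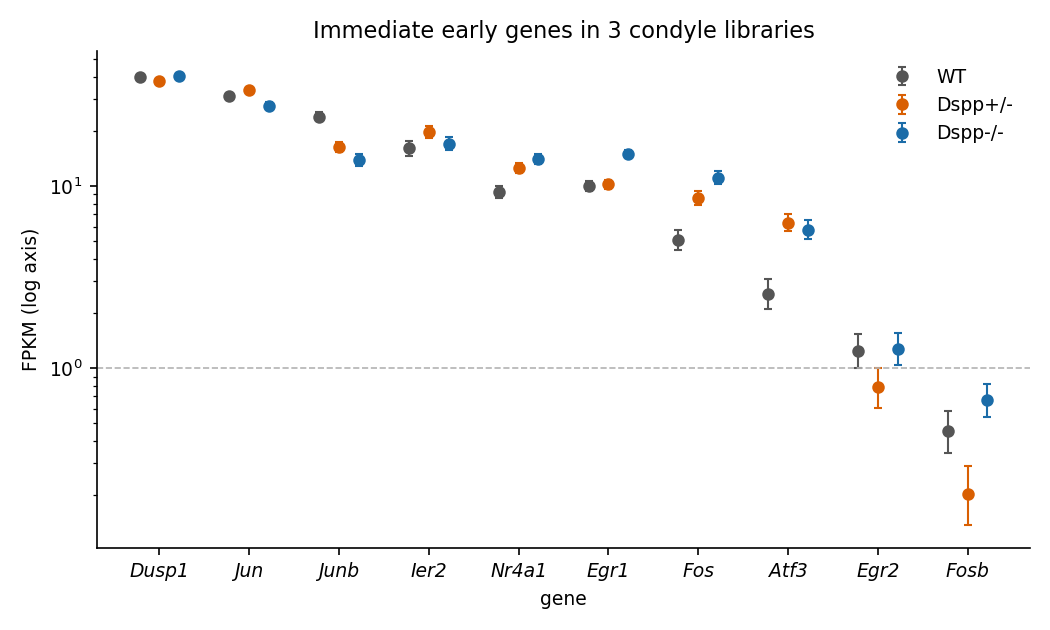
Level of each gene in FPKM on a log axis, 1 point per library, with bars for the 95% counting interval and a dashed line at 1 FPKM. Fos, Atf3 and Nr4a1 were higher in both mutant libraries than in WT, Junb was lower in both, and Fosb, the lowest of the 10, lay between 0.204 and 0.669 FPKM.

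Of the AP-1 genes, Fos and Atf3 had the largest differences upward against WT. Fos (ENSMUSG00000021250, chromosome 12, 85520664 to 85524047, plus strand) encodes the FOS subunit without which osteoclasts do not form. Its level was 5.08, 8.64 and 11.1 FPKM in WT, Dspp+/- and Dspp-/-, from 242, 480 and 582 fragments. WT was the lowest and Dspp-/- the highest library, with no overlap of the counting intervals. Fos was thus 1.70-fold higher in Dspp+/- than in WT (95% interval 1.45 to 1.99) and 2.19-fold higher in Dspp-/- (1.88 to 2.55). Between the mutants it was 1.29-fold higher in Dspp-/- (1.14 to 1.45). The neutrophil marker sum had the same order of libraries (615, 2689 and 3664 FPKM), but not every marker did. Of the 8 markers, 6 were higher in Dspp-/- than in Dspp+/-, and 2, Elane and Mpo, were at least 2-fold lower. The part of neutrophils in the Fos values was not tested. These intervals, as all others here, cover counting error alone, not the variation among mice. Atf3 (ENSMUSG00000026628, chromosome 1, 190902493 to 190950236, minus strand) encodes a stress-induced partner of JUN that often represses. It stood at 2.57, 6.31 and 5.76 FPKM in WT, Dspp+/- and Dspp-/-, from 112, 321 and 276 fragments. Both mutant libraries were above WT and close to each other. The fold was 2.46 in Dspp+/- (1.98 to 3.07) and 2.24 in Dspp-/- (1.79 to 2.82), and Dspp-/- over Dspp+/- gave 0.912, with an interval that held 1 (0.774 to 1.08).

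Fosb (ENSMUSG00000003545, chromosome 7, 19036621 to 19043976, minus strand), whose product replaces FOS in AP-1 and whose short form is known to raise bone mass, had the lowest level of the 10. Its fragments numbered 57, 30 and 93 in WT, Dspp+/- and Dspp-/-, for 0.451, 0.204 and 0.669 FPKM. Dspp+/- was the lowest library and Dspp-/- the highest, unlike Fos, which was above WT in both. Against WT the fold was 0.451 in Dspp+/- (0.280 to 0.714) and 1.48 in Dspp-/- (1.06 to 2.102), and Dspp-/- was 3.29-fold above Dspp+/- (2.16 to 5.14). Its mean of 0.441 FPKM was under the minimum of 1 FPKM set for comparing genes, so it enters none of the counts and medians below.

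Among the JUN genes, Junb was lower in both mutant libraries and Jun nearly level. Junb (ENSMUSG00000052837, chromosome 8, 85701113 to 85705347, minus strand), needed for osteoblast and chondrocyte growth, had 24.0, 16.5 and 13.9 FPKM in WT, Dspp+/- and Dspp-/-. The fragments were 1120, 895 and 714, and the counting intervals of the levels did not overlap between libraries. Its level was 0.685 times that of WT in Dspp+/- (0.627 to 0.749) and 0.580 times in Dspp-/- (0.527 to 0.638). Summed osteoblast markers were lower in both mutants too, though lowest in Dspp+/-, and their part in the Junb values was not tested. Within its exons, 7.52% of bases overlap Prdx2 in GENCODE M21, whose own level was 36.5, 50.4 and 40.8 FPKM. Jun (ENSMUSG00000052684, chromosome 4, 94937271 to 94940459, minus strand), the main partner of FOS, stood at 31.2, 33.7 and 27.6 FPKM in WT, Dspp+/- and Dspp-/-, from 2013, 2535 and 1959 fragments. Dspp+/- was the highest and Dspp-/- the lowest library, within a narrow range. The fold was 1.08 in Dspp+/- (1.02 to 1.15) and 0.885 in Dspp-/- (0.831 to 0.942). Each of these calls depended on the scaling, as the Dspp+/- interval held 1 after median-ratio scaling (0.966 to 1.09) and the Dspp-/- interval held 1 without mitochondrial genes (0.896 to 1.02). Exons of Jun overlap the antisense gene Junos over 7.28% of their bases, and Junos had 0.816, 1.10 and 1.05 FPKM. The kit named in the labels does not mark strand, so reads from such shared bases cannot be told apart.

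Ratios of these genes within a library do not depend on how libraries are scaled. Fos over Junb was 0.211 in WT (0.183 to 0.243), 0.525 in Dspp+/- (0.469 to 0.587) and 0.797 in Dspp-/- (0.714 to 0.891). Fos over Jun was 0.163, 0.257 and 0.403 in the same order, and Atf3 over Jun was 0.0824, 0.187 and 0.209. Junb over Jun was 0.771 in WT and lower in both mutants, at 0.489 and 0.505. Beside the mRNA of its JUN partners, Fos mRNA was thus lowest in WT and highest in Dspp-/-. Over the 7 FOS and JUN family genes, the summed level was 124.2, 98.1 and 91.9 FPKM in WT, Dspp+/- and Dspp-/-. Fos made up 4.09%, 8.81% and 12.1% of it. The remaining share was held mostly by Jun, Junb, Jund and Fosl2. Jund and Fosl2, named after their values were seen, are less inducible relatives of Jun and Fos. Jund had 46.5, 27.6 and 27.2 FPKM, and Fosl2 16.9, 11.5 and 11.3 FPKM. Both were lower in the mutant libraries, with Jund at 37.4%, 28.1% and 29.6% of the family sum.

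**Figure D2:**
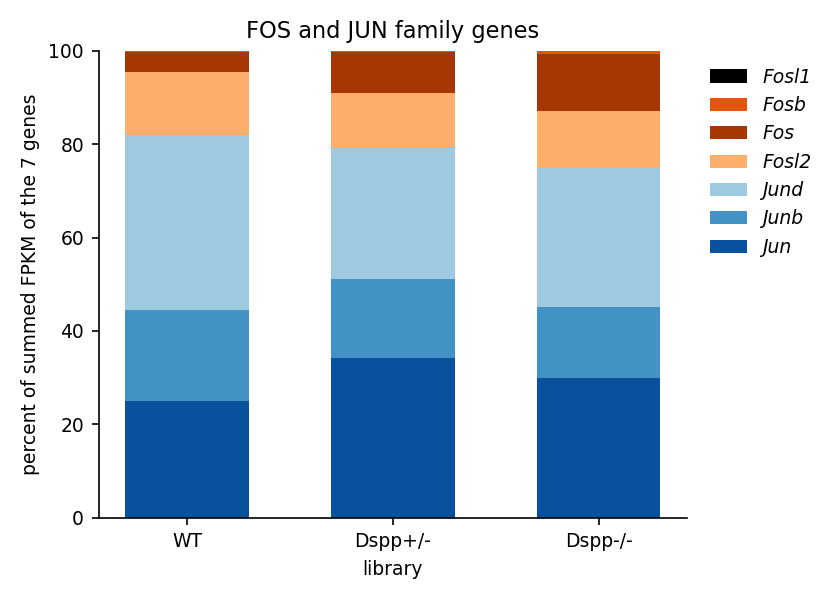
Stacked bars of the percent of the summed FPKM of the 7 FOS and JUN family genes held by each gene, 1 bar per library. From left to right the share of Fos was 4.09%, 8.81% and 12.1%, and that of Jund was largest in WT.

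The zinc finger genes Egr1 and Egr2 differed in pattern. Egr1 (ENSMUSG00000038418, chromosome 18, 34992876 to 34998037, plus strand), a growth and load response factor, had 10.004, 10.2 and 15.0 FPKM in WT, Dspp+/- and Dspp-/-, from 908, 1085 and 1495 fragments. The Dspp-/- library was the highest, 1.498-fold above WT (1.38 to 1.63) and 1.46-fold above Dspp+/- (1.35 to 1.58). Dspp+/- over WT was 1.02, with an interval that held 1 (0.937 to 1.12), and this depended on the scaling. The ratio was 0.972 after median-ratio scaling (0.890 to 1.06), while the interval lay above 1 without mitochondrial genes (1.015 to 1.21) and without hemoglobin, immunoglobulin, muscle and mitochondrial genes (1.05 to 1.25). Egr2 (ENSMUSG00000037868, chromosome 10, 67371305 to 67378018, plus strand), known to restrain osteoclast formation, stood at 1.25, 0.785 and 1.283 FPKM, from 86, 63 and 97 fragments. Here Dspp+/- was the lowest library and WT and Dspp-/- lay close together. The level in Dspp+/- was 0.628 times that of WT (0.446 to 0.879), while Dspp-/- over WT was 1.03 (0.760 to 1.39). At this depth a difference between WT and Dspp-/- was not detectable. Egr2 over Egr1 was 0.125, 0.0766 and 0.0856.

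Nr4a1 (ENSMUSG00000023034, chromosome 15, 101152150 to 101172676, plus strand) encodes an orphan nuclear receptor that acts without a known ligand. It had 9.32, 12.6 and 14.1 FPKM in WT, Dspp+/- and Dspp-/-, from 662, 1043 and 1102 fragments. The order of the libraries was that of Fos, with smaller differences. The fold against WT was 1.35 in Dspp+/- (1.22 to 1.49) and 1.51 in Dspp-/- (1.37 to 1.67), and 1.12 between the mutants (1.03 to 1.22). Ier2 (ENSMUSG00000053560, chromosome 8, 85387960 to 85389483, minus strand), a small nuclear protein, had 16.1, 19.9 and 17.1 FPKM, from 497, 717 and 581 fragments. Dspp+/- was the highest library. The fold against WT was 1.24 in Dspp+/- (1.10 to 1.39) and 1.06 in Dspp-/-, where the interval held 1 (0.942 to 1.20), although it lay above 1 without mitochondrial genes (1.015 to 1.29).

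Dusp1 (ENSMUSG00000024190, chromosome 17, 26724564 to 26781102, minus strand) encodes a phosphatase that switches MAP kinases off and is itself induced by them. It was the highest of the 10 genes and the most even, with 39.8, 37.6 and 40.2 FPKM in WT, Dspp+/- and Dspp-/-, from 2668, 2941 and 2960 fragments. The fold against WT was 0.945 in Dspp+/- (0.896 to 0.996) and 1.009 in Dspp-/- (0.957 to 1.06). Both directions depended on the scaling. In Dspp+/- the fold was 1.02 without mitochondrial genes (0.971 to 1.08), and without hemoglobin, immunoglobulin, muscle and mitochondrial genes its interval lay above 1 (1.001 to 1.11), the opposite side. In Dspp-/- the fold was 0.988 after median-ratio scaling (0.937 to 1.04), and the interval lay above 1 without mitochondrial genes (1.03 to 1.15) and without all of these genes (1.05 to 1.16). Its promoter held the full TGACGTCA element shown above.

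**Figure D3:**
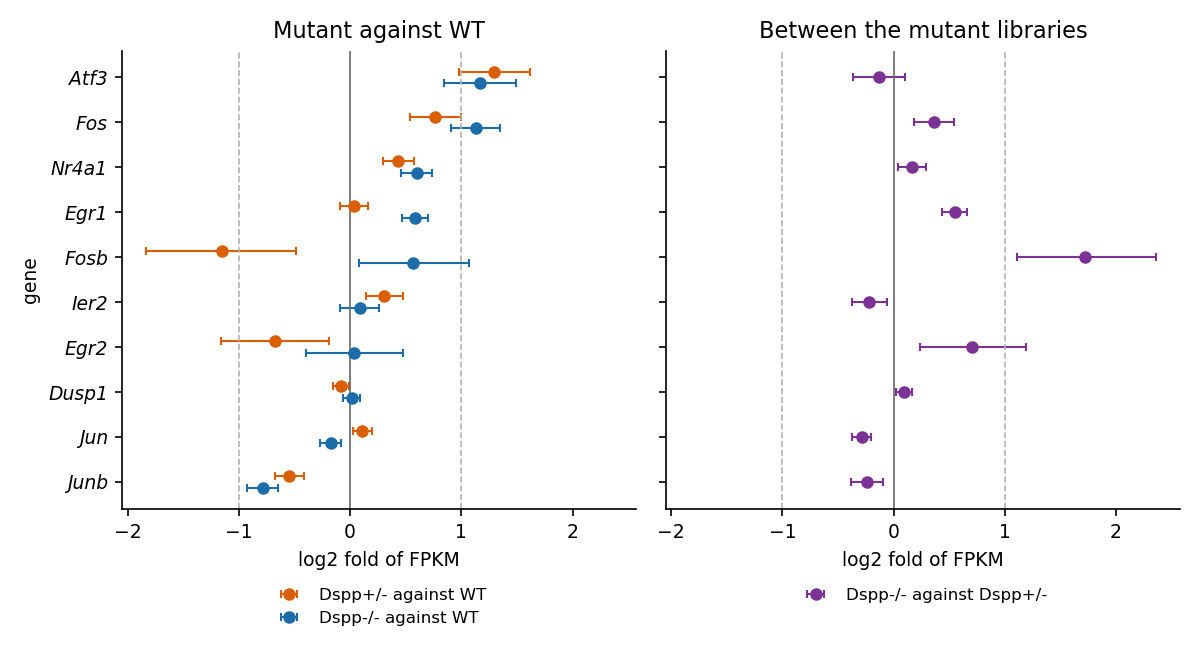
Log2 fold of FPKM for each gene, with bars for the 95% counting interval and dashed lines at a 2-fold difference. Left, Dspp+/- and Dspp-/- against WT, which share the WT library, and right, Dspp-/- against Dspp+/-. Atf3 and Fos lie farthest right on the left side, with Atf3 at 2.46-fold and 2.24-fold, and Junb lies left of 0 in each comparison.

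Set beside all genes, the group's median was close to theirs against WT while single members lay well apart. On the log2(FPKM + 1) scale, which understates differences of genes with low values, the genes averaging at least 1 FPKM were compared, 13026 in all and 9 of the members. In Dspp+/- against WT, 1 of 9 was at least 2-fold higher, Atf3, and 0 were at least 2-fold lower, where 4.88% and 2.86% of all genes were (6.76% and 2.22% when scaled without hemoglobin, immunoglobulin, muscle and mitochondrial genes). Atf3 had a log2 ratio of 1.03, and Fos 0.66. In Dspp-/- against WT, 0 of 9 passed 2-fold in either direction, where 4.05% of all genes were higher and 1.37% lower. Fos at 0.99 and Atf3 at 0.92 lay just inside the threshold. In Dspp-/- against Dspp+/-, 0 of 9 passed, where 0.852% were higher and 0.798% lower. Of all genes, 56.3% were above WT in Dspp+/-, 50.7% were above WT in Dspp-/-, and 44.7% were higher in Dspp-/- than in Dspp+/-, where 6, 7 and 5 of the 9 members were. The median log2 ratio of the 9 was 0.11 in Dspp+/- against WT (0.058 over all genes), 0.084 in Dspp-/- against WT (0.0070) and 0.093 in Dspp-/- against Dspp+/- (-0.037). The members spread wide around these medians, from -0.52 for Junb to 1.03 for Atf3 in Dspp+/- and from -0.75 for Junb to 0.99 for Fos in Dspp-/-. The counting interval of the fold lay above 1 for 5 of the 9 and below 1 for 3 in Dspp+/- against WT, where it did for 39.3% and 28.3% of all genes. It lay above 1 for 4 and below for 2 in Dspp-/- against WT (34.1% and 33.5% of all genes). Between the mutants it lay above 1 for 5 and below for 3 (25.4% and 34.5%). Fosb, outside the 9, is not in these counts.

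Other genes of the pathway were followed as lists, by role, with 2-fold calls on the same log2(FPKM + 1) scale. Upstream, 19 kinases and factors such as MAP kinases and serum response factor were compared. At least 2-fold higher was 1 in each mutant, beside 4.88% of all genes in Dspp+/- and 4.05% in Dspp-/-. The gene was Rps6ka1, a kinase below ERK, at 2.84, 12.2 and 9.56 FPKM in WT, Dspp+/- and Dspp-/-. The most abundant of them, the ERK gene Mapk3 (41.7, 43.4 and 41.8 FPKM) and the p38 gene Mapk14 (25.6, 34.2 and 30.2 FPKM), were within 2-fold. Of 9 other dual-specificity phosphatases compared, 1 was at least 2-fold higher in Dspp+/-, beside 4.88% of all genes. This was Dusp2, an ERK phosphatase of leukocytes, at 1.18, 4.44 and 3.01 FPKM. Without the added 1 its fold against WT was 3.75 in Dspp+/- (2.73 to 5.24) and 2.54 in Dspp-/- (1.81 to 3.61). None of the 9 was lower. Dusp7 (25.6, 22.3 and 17.3 FPKM) and Dusp3 (17.1, 16.2 and 12.8 FPKM) were the most abundant.

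Among other AP-1, MAF and ATF subunits, 10 of 14 were compared, with 0 higher and 1 lower in Dspp+/- and 0 in either direction in Dspp-/- against WT. Of all genes, 4.88% were at least 2-fold higher and 2.86% lower in Dspp+/-, and 4.05% and 1.37% in Dspp-/-. Jdp2, a JUN partner that represses and is known to promote osteoclast formation, was the lower one, at 36.0, 17.4 and 19.7 FPKM in WT, Dspp+/- and Dspp-/-. Atf5 was at least 2-fold lower in Dspp-/- than in Dspp+/- (104 FPKM in WT, 151 and 70.4), and Atf4, a factor of the amino acid response and osteoblasts, had 74.3, 83.9 and 63.4 FPKM. Their median log2 ratio was 0.02 in Dspp+/- and -0.34 in Dspp-/- against WT. The other EGR and NR4A genes with the NAB corepressors, 4 of 6 compared, had medians of -0.43 and -0.28, and none passed 2-fold. Egr3 was at 10.9, 7.22 and 7.97 FPKM and Nab1 at 15.3, 14.9 and 17.2 FPKM.

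A further 34 immediate early genes were listed, and 32 were compared. Of these 32, 11 were above WT in Dspp+/- and 10 in Dspp-/-, beside 56.3% and 50.7% of all genes, with median log2 ratios of -0.17 and -0.21. At least 2-fold lower were 1 in Dspp+/- and 2 in Dspp-/-, beside 2.86% and 1.37% of all genes. None was higher, beside 4.88% and 4.05%. Ccn2, a matrix-associated growth factor of cartilage and bone, was the one in Dspp+/-, at 379, 188 and 241 FPKM in WT, Dspp+/- and Dspp-/-. Gadd45g, a stress gene that restrains growth, had 35.9, 24.1 and 12.5 FPKM, and Cebpd, a leucine zipper factor, had 29.8, 19.7 and 11.8 FPKM. Both were lowest in Dspp-/-. Mcl1, a survival factor and the second most abundant of the list, was at 77.9, 86.9 and 85.0 FPKM.

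Of 8 known AP-1 target genes of bone and cartilage that were compared, 1 was above WT in each mutant, beside 56.3% and 50.7% of all genes. The 8 had medians of -0.89 and -0.44, beside 0.058 and 0.0070 over all genes. Of these 8, 4 were at least 2-fold lower in Dspp+/- against WT and 0 in Dspp-/-, beside 2.86% and 1.37% of all genes. These 4 were the collagenase Mmp13 (649, 240 and 487 FPKM in WT, Dspp+/- and Dspp-/-), the gelatinase Mmp9 (552, 239 and 371), the osteoclast phosphatase Acp5 (756, 248 and 399) and the protease inhibitor Timp1 (57.4, 19.6 and 33.6). Mmp13 was at least 2-fold higher in Dspp-/- than in Dspp+/-. Mmp9 and Acp5 are also osteoclast markers, and the osteoclast sum was lower in both mutants, as given above. Osteoblast and chondrocyte sums were lower in both mutants too. What part these sums had in the values of the 8 target genes was not tested. All 7 listed heat shock genes were above WT in both mutants, beside 56.3% and 50.7% of all genes, none by 2-fold, with medians of 0.55 in Dspp+/- and 0.20 in Dspp-/-. Hspa8, a constitutive chaperone, had 209, 307 and 240 FPKM and Hspb1, a small heat shock protein, 103, 178 and 127 FPKM. In these 7 genes Dspp+/- was the higher mutant, with 1 of 7 higher in Dspp-/- than in Dspp+/-, beside 44.7% of all genes.

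**Figure D4:**
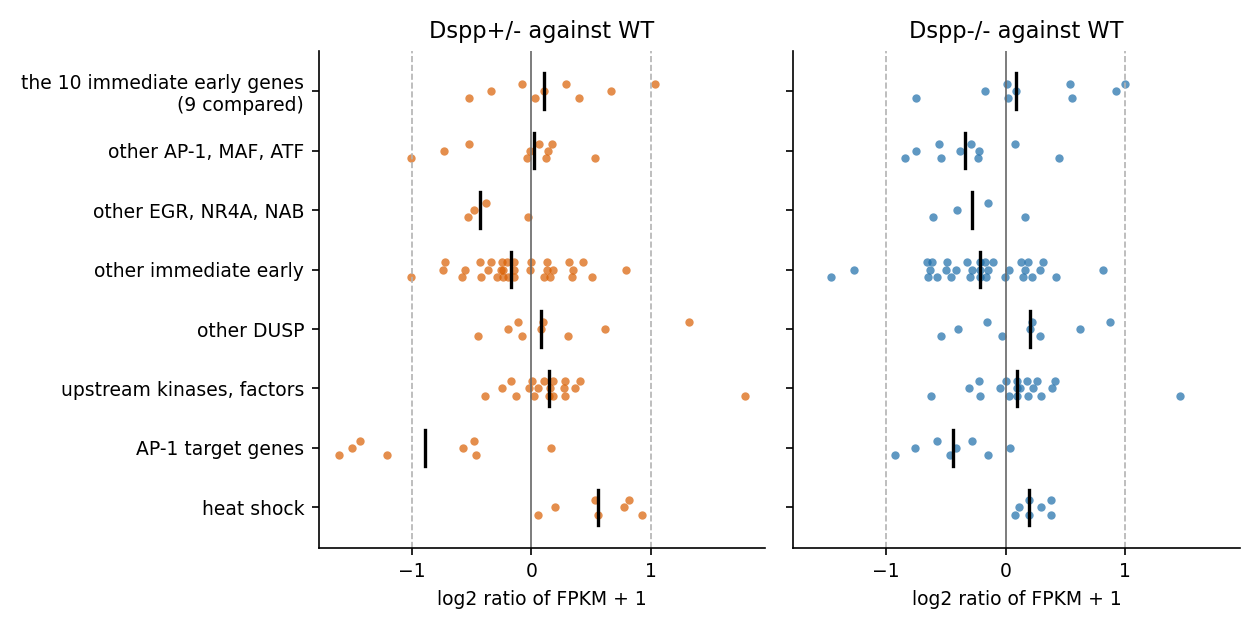
Log2 ratio of FPKM + 1 against WT for each compared gene of the 8 lists, with Dspp+/- left and Dspp-/- right, a black line at each list's median and dashed lines at a 2-fold difference. The 9 immediate early genes spread from -0.52 to 1.03 in Dspp+/-, around a median of 0.11, and the AP-1 target genes had the lowest median, at -0.89.

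The median pair of log2 ratios of the 9 members, 0.11 in Dspp+/- and 0.084 in Dspp-/-, is a summary around which the members spread wide, so nearness to it says little of the group. Among the 7126 genes averaging at least 5 FPKM, 383 (5.37%) had a pair of log2 ratios within a distance of 0.1 of the members' median pair. Among the nearest over the 3 libraries were Trrap, Mettl7a1, Zfp236 and Sh2b3, at distances of 0.0058 to 0.014.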

How the data were processed

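Libraries were made from poly(A)-selected condyle RNA of WT, Dspp+/- and Dspp-/- mice and sequenced in pairs of 150 bases, with 1 library per genotype. Values for 26970 genes were deposited by the authors in 1 table that does not name their unit, and these deposited values were read as FPKM from the values themselves. The submitters' processing notes name FastQC 0.11.5, HISAT2 2.1.0, StringTie 1.3.3b and DESeq 1.28.0 without their roles, and the human build hg38, although the identifiers are mouse. The annotation is not given in the sources used here. Positions are those of the table, whose build is not named and is not GRCm38, since both ends are those of GENCODE M21 for only 589 genes. No adjustment for library composition is part of FPKM, which makes every gene's value depend on how much of the library the abundant genes take.

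FPKM times merged exon length in GENCODE M21 came out as whole fragments at 1 depth per library, within 0.1 fragments, for 98.8% (WT), 98.9% (Dspp+/-) and 98.8% (Dspp-/-) of genes under 100 fragments. For Ier2 the length of 1524 bases spanned by the table was used in place of 1522. The fragments gave 95% Clopper-Pearson intervals, which cover counting error only, and a floor of 3 fragments. Genes averaging at least 1 FPKM were compared as log2 ratios of FPKM + 1, with 2-fold as the threshold and no p-value. On simulated data for Dspp+/- against WT over 26308 genes, 100% of fragment numbers and of 4-fold changes were recovered, and 6 of 12602 unchanged genes passed 2-fold. With 1 library per genotype the variation among mice is unknown, so this gives no rate of false calls between genotypes. The 8 alternatives were a pseudocount of 0.1 or 5, a minimum mean of 5 FPKM or none, scaling by median ratio, scaling without mitochondrial genes or without hemoglobin, immunoglobulin, muscle and mitochondrial genes, and a 1.5-fold threshold.

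All 10 members were named. From the pathway lists, compared genes at least 2-fold apart in any comparison and the 2 most abundant of each list were named, and the 5 genes nearest to the members' median pair of ratios, of which 1 is not reported here. The members and lists were chosen with earlier results of these data known. Older symbols were matched through RefSeq synonyms. Tables were handled with pandas 2.3.3 and numpy 2.4.6 under Python 3.11.15, intervals computed with scipy 1.17.1 and plots drawn with matplotlib 3.10.9. Dspp was not analysed here.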

Additional observations from a re-analysis of the deposited data

Results flagged for a closer look

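Fosb and Jun were on opposite sides of WT in the mutant libraries, each beyond counting error. Fosb was 0.451 times the WT level in Dspp+/- and 1.48 times in Dspp-/-. Jun was 1.08 times the WT level in Dspp+/- and 0.885 times in Dspp-/-. The difference between the genotypes was not tested, as each has 1 library. For Fosb the directions were kept under the 3 other scalings, on 30 to 93 fragments. For Jun the intervals held 1 under some scalings, as given above.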

How the results depend on the processing

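Of 183 values for single genes under 7 of the 8 alternatives, 166 stayed within the spread that counting allows and 17 moved beyond it. The 1.5-fold threshold changes no ratio and gave no such value. The ratio of no member past 2-fold changed sign, while Dusp1 in Dspp+/-, under 2-fold, passed from an interval below 1 to one above 1 (1.001 to 1.11) without hemoglobin, immunoglobulin, muscle and mitochondrial genes. Members at least 2-fold higher in Dspp+/- numbered 1, against 0 at a mean of at least 5 FPKM, after median-ratio scaling or with a pseudocount of 5, and 2 at 1.5-fold (Atf3 and Fos). In Dspp-/- they numbered 0, against 2 (Fos and Atf3) with a pseudocount of 0.1, without mitochondrial genes, without hemoglobin, immunoglobulin, muscle and mitochondrial genes, or at 1.5-fold. At 1.5-fold, 1 member, Junb, was lower in Dspp-/-, beside 8.21% of all genes. The median of the members in Dspp+/- was 0.26 without hemoglobin, immunoglobulin, muscle and mitochondrial genes, where the median of all genes also shifted, by 0.14 in Dspp+/- and 0.11 in Dspp-/-. Of all genes, 4.88% were at least 2-fold higher in Dspp+/- than in WT, against 11.5% at 1.5-fold, 7.45% with a pseudocount of 0.1, 1.42% with one of 5 and 2.71% with no filter, and for Dspp-/- 4.05% against 8.84%, 6.42%, 1.04% and 2.25%. Of the log2 ratios of the 9 members compared, those of Egr1 in Dspp+/- and of Dusp1 in Dspp+/- and Dspp-/- against WT changed sign, under the scalings named above. None of these 9 passed the threshold between the mutants under the 8 alternatives, 1 of which (a mean of at least 5 FPKM) kept 7 of them. No paired analysis was possible because each genotype has 1 library.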

Other observations

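Genes named here were chosen after their values were seen. Among the other immediate early genes, Btg2, a growth-restraining gene induced by p53, ran with Fos and Atf3 in being above WT in both mutants, at 11.7, 21.04 and 21.3 FPKM in WT, Dspp+/- and Dspp-/-. Its fold was 1.79 (1.63 to 1.97) and 1.82 (1.65 to 1.999). Dusp10, a phosphatase of p38 and JNK, had 6.85, 10.998 and 11.1 FPKM. From the list of other immediate early genes, Socs3, Nfkbia, Klf4 and Gadd45b were lower in both mutants. Socs3 stood at 8.24, 6.18 and 4.85 FPKM and Nfkbia at 53.7, 42.3 and 37.6 FPKM. Of the 32 genes compared in that list, 11 were above WT in Dspp+/- and 10 in Dspp-/-.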
